A study of Homo sapiens with 8 samples.

Results

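The genes described here are 10 enzymes that load fatty acids onto coenzyme A and exchange them in membrane phospholipids, measured by RNA sequencing in cardiomyocytes made from human induced pluripotent stem cells (iPSC-CMs). They are the long-chain acyl-CoA synthetases ACSL1, ACSL3, ACSL4, ACSL5 and ACSL6, the lysophosphatidylcholine acyltransferases LPCAT1, LPCAT2, LPCAT3 and LPCAT4, and the phospholipase PLA2G6. They were chosen by gene symbol, and all 10 were found among the 60658 genes listed. The study compared 4 libraries of the H/R group with 4 of the H/R+BA group, all labelled as cardiomyocytes of 1 iPSC line, written 235G1 in the sample labels and 253G1 in the methods. Cells of both groups were held for 12 h at 1% O2 in DMEM with 0.3 g/L glucose and no serum, and then reoxygenated for 12 h. In the H/R group the reoxygenation medium was DMEM with 10% FBS, and in the H/R+BA group medium conditioned by sheets of brown adipocytes (BA) took its place. The sheets were built from rat cells that were first induced with insulin, T3, IBMX, dexamethasone and rosiglitazone. The induction medium was then replaced by a maintenance medium of DMEM with 10% FBS, insulin and T3. The comparison therefore concerns 2 media after the same hypoxia, and cells without hypoxia were not analysed here. The labels number the replicates and do not say that they came from separate cultures, so every p-value rests on the spread among the 8 libraries, which may be technical.

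Long-chain acyl-CoA synthetases activate free fatty acids, and the isoforms differ in the fatty acids they prefer and in the membranes they sit on. In the remodelling cycle of phospholipids, a phospholipase A2 such as PLA2G6 removes a fatty acid and an LPCAT enzyme puts another in its place. ACSL4, which prefers arachidonic acid, and LPCAT3, which places polyunsaturated acyl chains into phospholipids, together make the membrane lipids that are oxidised in ferroptosis, an iron-dependent form of cell death. In the heart, which lives largely on fatty acids, ACSL1 is known as the main isoform that feeds fatty acids to oxidation.

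The 8 libraries held 39854257 to 53308952 reads, and 95.4% to 96.3% of them were mapped. The values were FPKM, that is, fragment counts scaled by gene length and library size, as normalized by the authors. The label of a cardiomyocyte was met by its markers, since all 16 cardiomyocyte markers passed the filter, with TNNI3 alone called (higher), and their summed level was 16522 to 25736 FPKM in H/R and 18761 to 23122 FPKM in H/R+BA. Hepatic markers, with AFP and SERPINA1 at the head, were also high (none of 10 called by limma, 1 at an unadjusted p under 0.05), and their summed level varied within each group: it was 2522, 5111, 1818 and 3903 FPKM in H/R libraries 1 to 4 and 2530, 2822, 4199 and 3826 FPKM in H/R+BA libraries 1 to 4. Some markers of other cells were higher in H/R+BA, and each count stands beside the 13.7% of all tested genes called higher. The summed endothelial level was 96.6 to 110.6 FPKM in H/R and 146.6 to 170.9 FPKM in H/R+BA, with 7 of 10 tested markers called higher. TEK, 1 of the 7, was under 1 FPKM in every H/R library and passed the filter only through H/R+BA. VWF, CLDN5 and ERG were under 1 FPKM in every library. ROBO4, also untested, had means of 0.814 FPKM in H/R and 0.753 FPKM in H/R+BA. For fibroblasts 3 of 8 tested markers were called higher, and the summed level was 487 to 770 FPKM in H/R and 702 to 910 FPKM in H/R+BA. For macrophages and leukocytes 2 of 3 tested markers were called higher, with a summed level of 5.96 to 14.9 FPKM against 15.4 to 21.5 FPKM. CSF1R, 1 of the 2, was under 1 FPKM in all but 1 H/R library. PTPRC, CD14, ITGAM, CD163 and AIF1 stayed under 1 FPKM in every library. All 4 tested pluripotency markers were called higher, from a summed level of 4.93 to 5.90 FPKM to one of 12.5 to 15.1 FPKM. These levels were low. LIN28A was under 1 FPKM in every H/R library and ZFP42 in all but 1, so both passed the filter only through H/R+BA. NANOG and SOX2 were under 1 FPKM in every library. Of the adipocyte markers, ADIPOQ, LEP, UCP1, PLIN1, CIDEA and FABP4 were under 1 FPKM in every library, and neither of the 2 tested was called (1 at an unadjusted p under 0.05). The part of these other cells in the results below was not tested, except where a value is given, and in bulk RNA fewer cells of a type and less RNA per cell cannot be told apart.

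Of the 10 genes, 9 reached at least 1 FPKM in 4 or more libraries and were tested. ACSL5 and LPCAT4 were higher in H/R+BA, ACSL1 and ACSL4 were lower, and the other 5 did not pass the test. A gene was called where the p-value of limma, adjusted over all 14334 tested genes, was under 0.05. By this rule 24.7% of all tested genes were called, 13.7% higher and 11.1% lower, so calls were frequent in this comparison. The members' values by library are shown in the plot of FPKM.

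**Figure D1:**
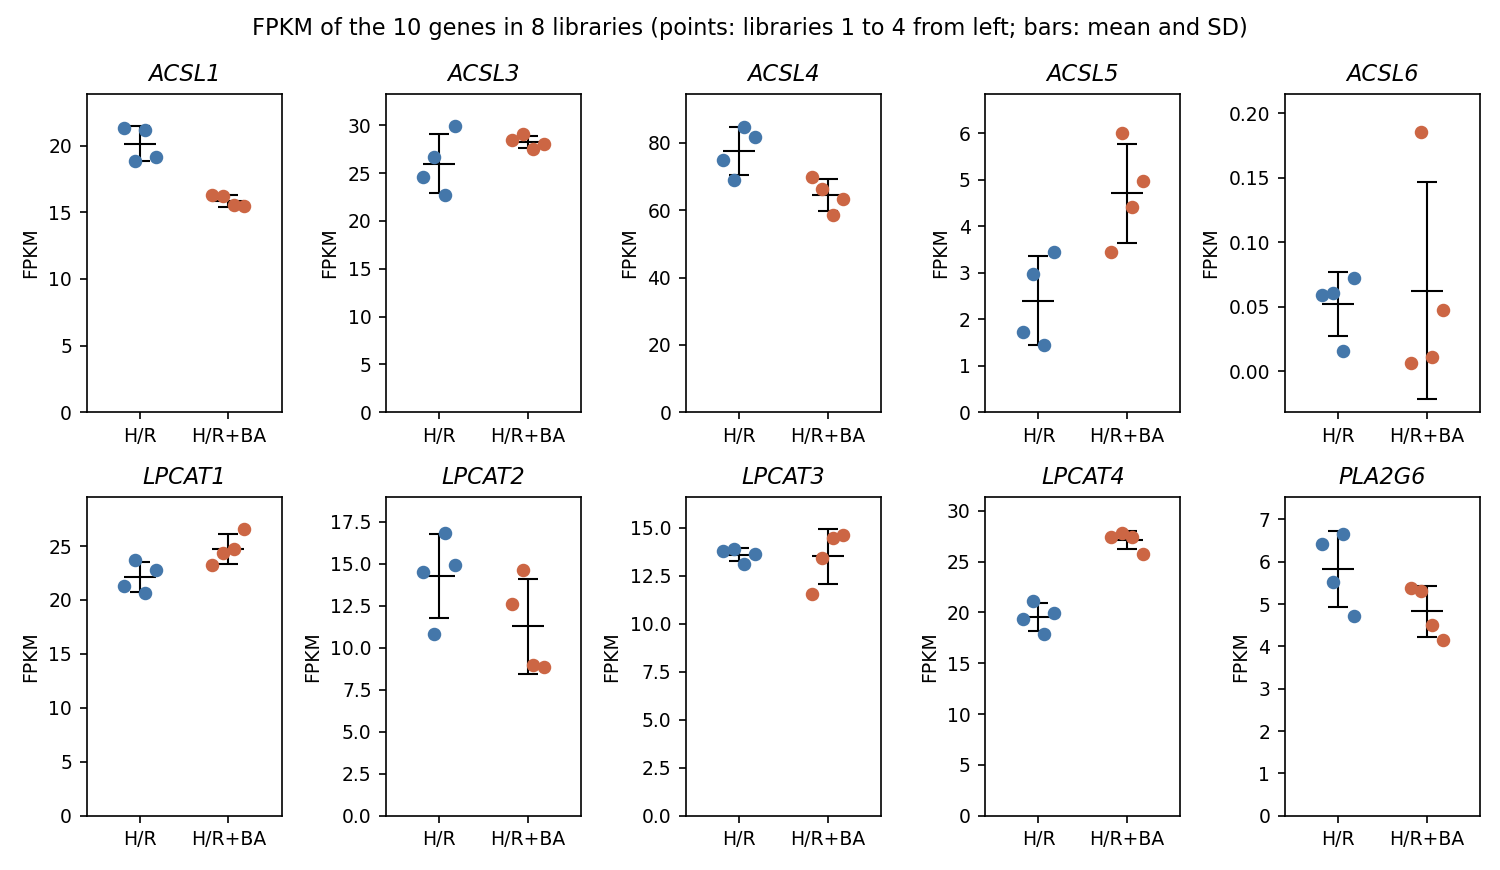
FPKM (vertical axes, from 0 or below) of each of the 10 genes in the 4 H/R libraries (blue) and the 4 H/R+BA libraries (orange), with the mean and SD as bars. The groups did not overlap for ACSL1, ACSL5 and LPCAT4, as for 28.6% of all tested genes in either direction. For ACSL5 the gap was narrow, at 3.435 against 3.441 FPKM. ACSL4 overlapped in 1 library of each group and ACSL6 stayed below 0.2 FPKM.

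ACSL1 (ENSG00000151726, GRCh38 chr4:184755595-184826818, minus strand), the isoform of heart and fat, was listed at 21.3, 18.9, 21.2 and 19.1 FPKM in H/R libraries 1 to 4 and at 16.3, 16.2, 15.5 and 15.4 FPKM in H/R+BA libraries 1 to 4. Every H/R+BA library lay below every H/R library, as was the case for 13.3% of all tested genes. The mean fell from 20.1 ± 1.31 to 15.9 ± 0.459 FPKM (SD, n = 4 each), a ratio of 0.788, and the log2 fold change was −0.32 (standard error 0.06, 95% interval −0.46 to −0.19, adjusted p = 0.00480 by limma). Fold changes are H/R+BA minus H/R after adding 1 to each FPKM and taking log2, which makes them smaller than the FPKM ratio for genes at a low level. The call was kept under all 18 alternatives of processing, with values of −0.38 to −0.30.

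ACSL4 (ENSG00000068366, chrX:109624244-109733403, minus strand), the arachidonate-preferring isoform, had the highest level of the 10 genes in every library. It was at 75.0, 68.9, 84.7 and 81.7 FPKM in H/R and at 69.9, 66.2, 58.4 and 63.4 FPKM in H/R+BA. The groups overlapped, since H/R library 2 lay below H/R+BA library 1. The mean fell from 77.6 ± 7.09 to 64.5 ± 4.83 FPKM (SD, n = 4 each), with a log2 fold change of −0.26 (standard error 0.08, 95% interval −0.43 to −0.09, adjusted p = 0.0345 by limma). The call was near the threshold: it was lost without H/R library 1, 3 or 4 and without H/R+BA library 2, 3 or 4, with values of −0.28 to −0.22 and an adjusted p of up to 0.0931. It was lost as well with no filter, without moderation of the variance, with the replicate number as a block (adjusted p = 0.0906) and with the share of mapped reads as a term (adjusted p = 0.0515).

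The deposited table also holds normalized counts, and in these the difference in ACSL4 was larger. In each library 72.1% to 76.1% of the nonzero normalized counts were multiples of its commonest low value, within 0.02. That low value was rounded before the division, an error that grows with the count, so a large whole count can fail. The share therefore cannot decide whether the counts were whole fragments over a single factor. The normalized counts of ACSL4 were 8031, 6848, 8490 and 7499 in H/R and 5663, 5511, 5862 and 5810 in H/R+BA. On this scale the groups did not overlap, as for 18.9% of tested genes in this direction. The mean went from 7717 ± 707 to 5711 ± 158 normalized counts (SD, n = 4 each), and the log2 fold change was −0.43 (standard error 0.07, adjusted p = 0.00105 by limma), beside −0.26 from FPKM. The 2 columns differed because the normalized count per FPKM of ACSL4 was not constant: it was 107.0, 99.4, 100.2 and 91.8 in H/R and 81.0, 83.3, 100.3 and 91.7 in H/R+BA, lowest in H/R+BA libraries 1 and 2. The sources used here do not say how the FPKM of a gene was made from its fragments.

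ACSL5 (ENSG00000197142, chr10:112374116-112428379, plus strand), an isoform best known from intestine and liver, was low in these cells and was the member with the largest fold change. It was at 1.72, 2.98, 1.45 and 3.44 FPKM in H/R and at 3.44, 6.001, 4.41 and 4.97 FPKM in H/R+BA. H/R libraries 1 and 3 were the lowest, and the highest H/R library and the lowest H/R+BA library were almost equal. The mean rose from 2.40 ± 0.962 to 4.71 ± 1.07 FPKM (SD, n = 4 each), a ratio of 1.96, and the log2 fold change was 0.77 (standard error 0.21, 95% interval 0.31 to 1.24, adjusted p = 0.0231 by limma). In normalized counts it went from 169, 367, 189 and 307 to 419, 504, 516 and 584, and the log2 difference there was 1.03 with a standard error of 0.23 (adjusted p = 0.00768). The call from FPKM was lost without H/R library 1 (0.68, adjusted p = 0.0605), without H/R+BA library 2 (0.67, adjusted p = 0.0679) and without H/R+BA library 4 (0.75, adjusted p = 0.0578). The summed hepatic markers were also lowest in H/R libraries 1 and 3 within that group. In H/R+BA libraries 1 to 4 the sums were 2530, 2822, 4199 and 3826 FPKM. There ACSL5 was lowest in library 1, as the sum was, but highest in library 2. In a model with the sum as a term, ACSL5 had a log2 difference of 0.73 (standard error 0.15, adjusted p = 0.00452 by limma).

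ACSL3 (ENSG00000123983, chr2:222860942-222944639, plus strand), an isoform of the endoplasmic reticulum and of growing lipid droplets, was at 24.6, 26.7, 22.7 and 29.9 FPKM in H/R and at 28.5, 29.1, 27.6 and 28.03 FPKM in H/R+BA. The groups overlapped through H/R library 4, and the spread was wider in H/R. The means were 25.99 ± 3.09 and 28.3 ± 0.640 FPKM (SD, n = 4 each), and the log2 fold change of 0.12 did not pass the test (95% interval −0.05 to 0.30, adjusted p = 0.274 by limma). ACSL6 (ENSG00000164398, chr5:131949973-132012243, minus strand), known from the brain, was at 0.0156 to 0.0720 FPKM in H/R and 0.00621 to 0.185 FPKM in H/R+BA, or 0.848 to 6.90 normalized counts per library, and was not tested.

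Of the acyltransferases, LPCAT4 rose, and LPCAT1, LPCAT2 and LPCAT3 did not pass the test. LPCAT4 (ENSG00000176454, chr15:34358633-34367196, minus strand), which reacylates lysophosphatidylethanolamine and lysophosphatidylcholine with oleic acid, was at 19.3, 21.1, 17.8 and 19.9 FPKM in H/R and at 27.4, 27.8, 27.4 and 25.8 FPKM in H/R+BA. All 4 H/R+BA libraries lay above all 4 H/R libraries, as for 15.3% of tested genes. The mean rose from 19.5 ± 1.37 to 27.1 ± 0.898 FPKM (SD, n = 4 each), a ratio of 1.39, and the log2 fold change was 0.45 (standard error 0.06, 95% interval 0.32 to 0.59, adjusted p = 0.00116 by limma). It was called under all 18 alternatives, with values of 0.41 to 0.49. In normalized counts the difference was 0.42 (adjusted p = 4.51e-04).

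LPCAT3 (ENSG00000111684, chr12:6976185-7018477, minus strand), the acyltransferase of arachidonic and linoleic acid, was at 13.8, 13.9, 13.1 and 13.6 FPKM in H/R and at 11.5, 13.4, 14.4 and 14.6 FPKM in H/R+BA. The H/R libraries were close together and lay inside the range of the H/R+BA libraries. The means were 13.6 ± 0.348 and 13.5 ± 1.42 FPKM (SD, n = 4 each). The log2 fold change was −0.01 (standard error 0.08, adjusted p = 0.909 by limma), and its 95% interval of −0.19 to 0.16 leaves room for a small change in either direction. Without H/R+BA library 1 the value was 0.05. The exons of LPCAT3 share 3096 bases with those of EMG1 on the opposite strand, and EMG1 was at 8.92, 14.02, 7.84 and 13.2 FPKM in H/R and at 14.3 to 15.1 FPKM in H/R+BA. The kit marks strand, but no source used here says whether the counting used it, so reads of the shared bases cannot be told apart. The same holds for 326 exonic bases that PLA2G6 shares with MAFF (13.3 to 24.7 FPKM over the 8 libraries) and for 144 that ACSL5 shares with ZDHHC6 (9.94 to 14.6 FPKM), both on the opposite strand.

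LPCAT1 (ENSG00000153395, chr5:1456480-1523962, minus strand), which makes the saturated phosphatidylcholine of lung surfactant, was at 21.3, 23.7, 20.7 and 22.8 FPKM in H/R and at 23.3, 24.3, 24.8 and 26.6 FPKM in H/R+BA. The groups overlapped only in that H/R library 2 lay just above H/R+BA library 1. The means were 22.1 ± 1.39 and 24.7 ± 1.38 FPKM (SD, n = 4 each). The log2 fold change of 0.16 (standard error 0.06, 95% interval 0.01 to 0.30) did not pass the test over all genes (adjusted p = 0.101 by limma). With the hepatic marker level as a term it was 0.14 with an adjusted p of 0.0348. LPCAT2 (ENSG00000087253, chr16:55509072-55586666, plus strand), which also makes platelet-activating factor in inflammatory cells, was at 14.5, 10.8, 16.8 and 14.9 FPKM in H/R and at 12.6, 14.6, 8.94 and 8.85 FPKM in H/R+BA. The groups overlapped, and H/R+BA libraries 3 and 4 were the lowest of the 8. Its means were 14.3 ± 2.52 and 11.3 ± 2.85 FPKM (SD, n = 4 each), and the difference of −0.33 on the log2 scale did not pass the test, with a standard error of 0.17 and an adjusted p of 0.190.

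PLA2G6 (ENSG00000184381, chr22:38111495-38214778, minus strand), the calcium-independent phospholipase A2 beta, was at 6.41, 5.52, 6.67 and 4.71 FPKM in H/R and at 5.37, 5.31, 4.51 and 4.14 FPKM in H/R+BA. The groups overlapped, with the H/R libraries 1 and 3 above all others. The means were 5.83 ± 0.891 and 4.83 ± 0.602 FPKM (SD, n = 4 each), and the log2 fold change of −0.22 did not pass the test (95% interval −0.48 to 0.03, adjusted p = 0.181 by limma).

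LPCAT2 and PLA2G6 were, like ACSL4, members for which the deposited normalized counts gave another picture than FPKM. LPCAT2 had 1088, 906, 1309 and 994 normalized counts in H/R and 755, 736, 694 and 743 in H/R+BA. In these values the groups did not overlap and H/R+BA varied little, and the log2 fold change was −0.54 (standard error 0.10, adjusted p = 0.00325 by limma). The normalized count per FPKM of LPCAT2 was 59.9 and 50.3 in H/R+BA libraries 1 and 2 and 77.7 and 83.9 in H/R+BA libraries 3 and 4, and the wide spread of its FPKM in H/R+BA therefore lay in this ratio. PLA2G6 had 384, 300, 392 and 295 normalized counts in H/R and 259, 276, 264 and 261 in H/R+BA, again without overlap (35.7% of tested genes in either direction), and the difference on the log2 scale was −0.36 with a standard error of 0.11 (adjusted p = 0.0329).

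On normalized counts 6 of the 9 tested members were called, 2 higher and 4 lower, where 34.5% of all tested genes were called, 16.4% higher and 18.1% lower. ACSL1 (−0.38, adjusted p = 0.00181), ACSL5 and LPCAT4 kept their calls, and ACSL3 (0.05), LPCAT1 (0.14) and LPCAT3 (−0.04) were called in neither column. Over the 8 libraries the coefficient of variation of the normalized count per FPKM was 9.57% for ACSL4, 16.7% for LPCAT2, 15.6% for ACSL5, 9.85% for ACSL3 and 9.06% for PLA2G6. It was 2.98% for ACSL1, 2.44% for LPCAT1, 2.197% for LPCAT3 and 4.32% for LPCAT4. Over all tested genes its median was 4.20% and its 90th percentile 12.7%.

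**Figure D2:**
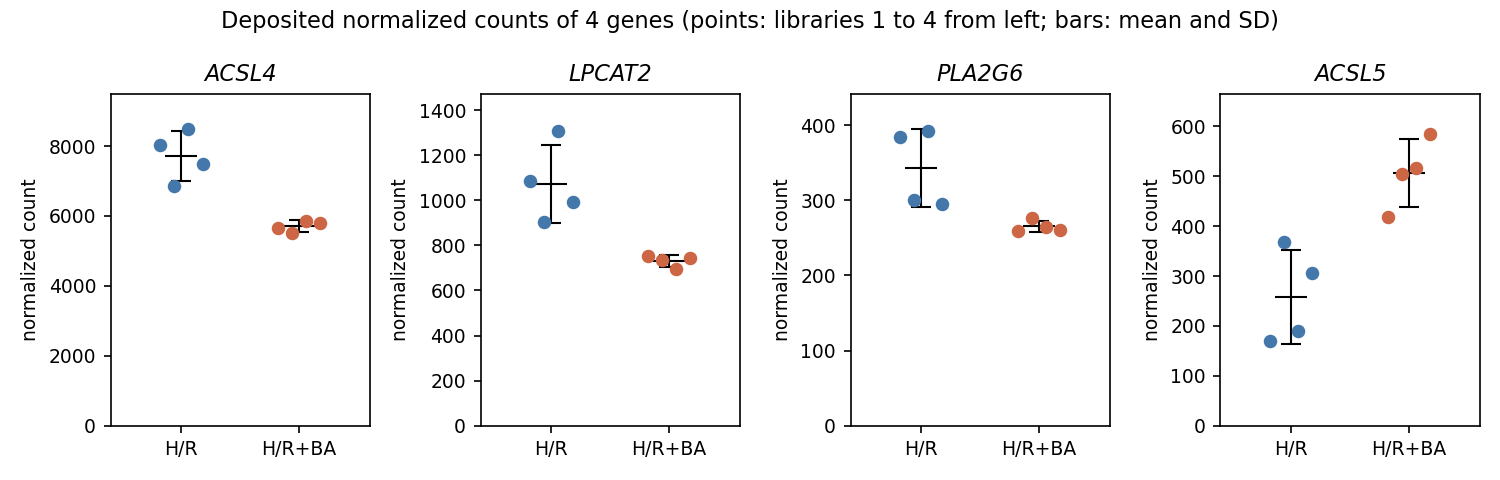
Deposited normalized counts (vertical axes, from 0) of ACSL4, LPCAT2, PLA2G6 and ACSL5 in the 4 H/R libraries (blue) and the 4 H/R+BA libraries (orange), with the mean and SD as bars. The H/R+BA libraries of ACSL4 lie at 5511 to 5862, all below the lowest H/R library at 6848.

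**Figure D3:**
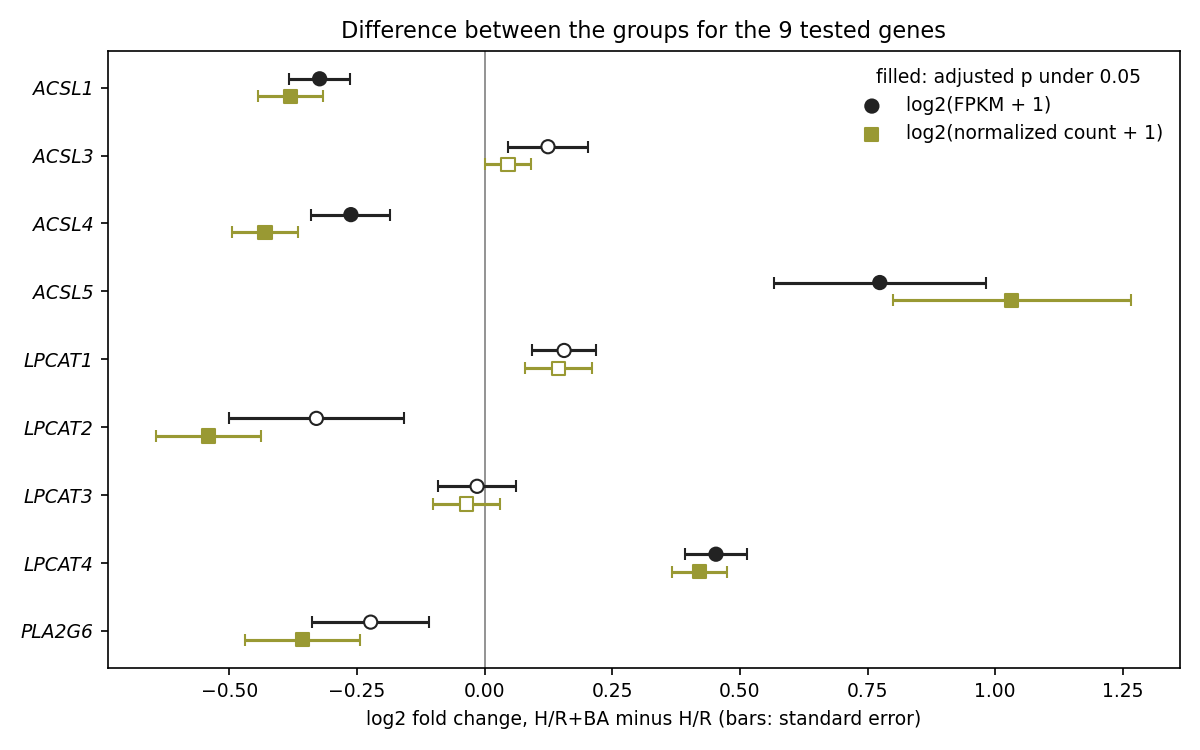
Log2 fold change, H/R+BA minus H/R (horizontal axis), of the 9 tested genes from FPKM (black circles) and from normalized counts (olive squares), each with its standard error as a bar and filled where the adjusted p was under 0.05. All members but ACSL5 lie further to the left in normalized counts than in FPKM, and LPCAT2 and PLA2G6 are filled in normalized counts alone.

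The sequence just before the transcription start is shown for ACSL4, which fell, LPCAT4, which rose, and LPCAT3, which did not pass the test. Each has a single start in the RefSeq table, as do ACSL3, LPCAT1 and PLA2G6, which are not shown. ACSL1 has 5 starts and ACSL5 has 2, and a value per gene does not say which was used. Of the 10 genes, 9 matched the table (GRCh38.p14). The 250 bases are printed 5′ to 3′ on the strand of the gene, at chrX:109733258-109733507, chr15:34367197-34367446 and chr12:7018477-7018726, all on the minus strand. Capitals mark 5 motifs on either strand, with overlaps joined. The first is the GC box, read as GGGCGG. The next is the CCAAT box, read by its name. A further motif is the core of the cyclic AMP response element, which was searched as TGACGT. The antioxidant response element, to which NRF2 binds, was searched as TGACNNNGC. The last motif was the palindromic E box, which was searched as CACGTG.
ACSL4: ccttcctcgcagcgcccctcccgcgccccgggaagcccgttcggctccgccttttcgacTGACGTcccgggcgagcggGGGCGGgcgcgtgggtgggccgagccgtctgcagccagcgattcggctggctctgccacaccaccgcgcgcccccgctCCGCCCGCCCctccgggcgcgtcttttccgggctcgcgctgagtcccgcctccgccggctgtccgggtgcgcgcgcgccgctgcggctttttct
LPCAT4: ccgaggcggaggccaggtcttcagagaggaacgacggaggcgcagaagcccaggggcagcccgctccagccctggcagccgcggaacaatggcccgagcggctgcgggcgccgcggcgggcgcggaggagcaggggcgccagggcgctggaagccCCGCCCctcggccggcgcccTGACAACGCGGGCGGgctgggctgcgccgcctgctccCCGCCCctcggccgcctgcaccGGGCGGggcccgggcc
LPCAT3: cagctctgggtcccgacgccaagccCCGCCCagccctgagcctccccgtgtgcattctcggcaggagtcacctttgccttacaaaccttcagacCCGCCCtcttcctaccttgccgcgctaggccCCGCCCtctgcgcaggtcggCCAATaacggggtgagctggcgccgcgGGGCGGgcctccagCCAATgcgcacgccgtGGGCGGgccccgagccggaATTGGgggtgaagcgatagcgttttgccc
All 3 were rich in G and C, at 77.2% for ACSL4, 80.8% for LPCAT4 and 69.2% for LPCAT3. The GC box was found 3 times in ACSL4, 4 times in LPCAT4 and 5 times in LPCAT3, and 42.6% of 35116 RefSeq promoters of this length hold at least 1. ACSL4 held 1 cyclic AMP element core, found in 7.10% of promoters, and LPCAT4 held 1 antioxidant element, found in 10.9%. LPCAT3 held 3 CCAAT boxes, and 32.0% of promoters held at least 1. The E box, found in 6.35% of promoters, was in none of the 3. The TATA box, searched as its letters TATAAA and found in 10.7% of promoters, was also in none of the 3. The direct repeats of the nuclear receptor half-site that PPAR and LXR bind were searched with both half-sites exact. Such exact repeats were found in 0.0171% and 0.0142% of promoters and in none of the 3. Because exact matches are this rare, their absence here does not say whether the 3 hold less exact sites. A match of letters is a description and not a bound site.

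In the order of the levels per length, LPCAT4 stood above LPCAT1 and ACSL1 in H/R+BA and below them in H/R, and LPCAT2 and LPCAT3 exchanged places with overlapping ranges in both groups. In H/R the mean FPKM ran from ACSL4 through ACSL3, LPCAT1, ACSL1, LPCAT4, LPCAT2, LPCAT3, PLA2G6 and ACSL5 to ACSL6. Neighbours from ACSL3 to LPCAT4 overlapped in their ranges, as did LPCAT2 and LPCAT3, and ACSL4, PLA2G6, ACSL5 and ACSL6 stood apart from their neighbours. In H/R+BA the order was ACSL4, ACSL3, LPCAT4, LPCAT1, ACSL1, LPCAT3, LPCAT2, PLA2G6, ACSL5 and ACSL6, in which LPCAT4 overlapped with ACSL3 and LPCAT1, LPCAT3 with LPCAT2, and PLA2G6 with ACSL5.

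As a share of the summed FPKM of the 5 synthetases, ACSL4 made up 61.4 ± 2.71% in H/R and 56.8 ± 1.69% in H/R+BA, ACSL3 20.6 ± 2.42% and 24.97 ± 0.801%, ACSL1 15.99 ± 1.29% and 14.01 ± 0.419%, and ACSL5 1.90 ± 0.753% and 4.15 ± 0.917% (SD, n = 4 each). The sum was 126.2 ± 7.50 FPKM in H/R and 113 ± 5.73 FPKM in H/R+BA. ACSL4 was thus more than any other isoform in both groups. Among the acyltransferases LPCAT4 made up 28.1 ± 1.77% in H/R and 35.4 ± 1.28% in H/R+BA, and LPCAT2 20.5 ± 3.74% and 14.7 ± 3.40%. LPCAT1 stood at 31.8 ± 1.71% and 32.3 ± 2.09%, and LPCAT3 at 19.6 ± 0.488% and 17.6 ± 1.88%. The LPCAT sum was 68.4 to 71.2 FPKM in H/R and 74.8 to 80.1 FPKM in H/R+BA. These sums and shares are descriptions, and no test was run on them.

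For the pair that makes the lipids oxidised in ferroptosis, the genes with the most similar pattern were sought over the 8 libraries by Pearson's r of log2(FPKM + 1). For ACSL4 they were SQLE, squalene epoxidase (r = 0.988), the nuclear RNA MALAT1 (r = 0.980) and the reticulon RTN3 (r = 0.971). For LPCAT3 they were TOPBP1, a DNA damage response protein (r = 0.925), KANSL1, of a histone acetyltransferase complex (r = 0.903), and KIAA0922 (r = 0.895). These are the highest of 14334 values each over the same libraries, which share depth and group, and are given as a description.

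Related genes were taken from 11 lists of the same pathways. Of 187 listed genes 143 were tested, and 37 were called, beside 24.7% of all tested genes. On normalized counts 56 were called, beside 34.5% of all tested genes. The median log2 fold change of all tested genes was 0.01, and 13.7% of them were called higher and 11.1% lower. The counts of each list below are to be read beside these shares. The plot of related genes shows every tested gene by list.

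**Figure D4:**
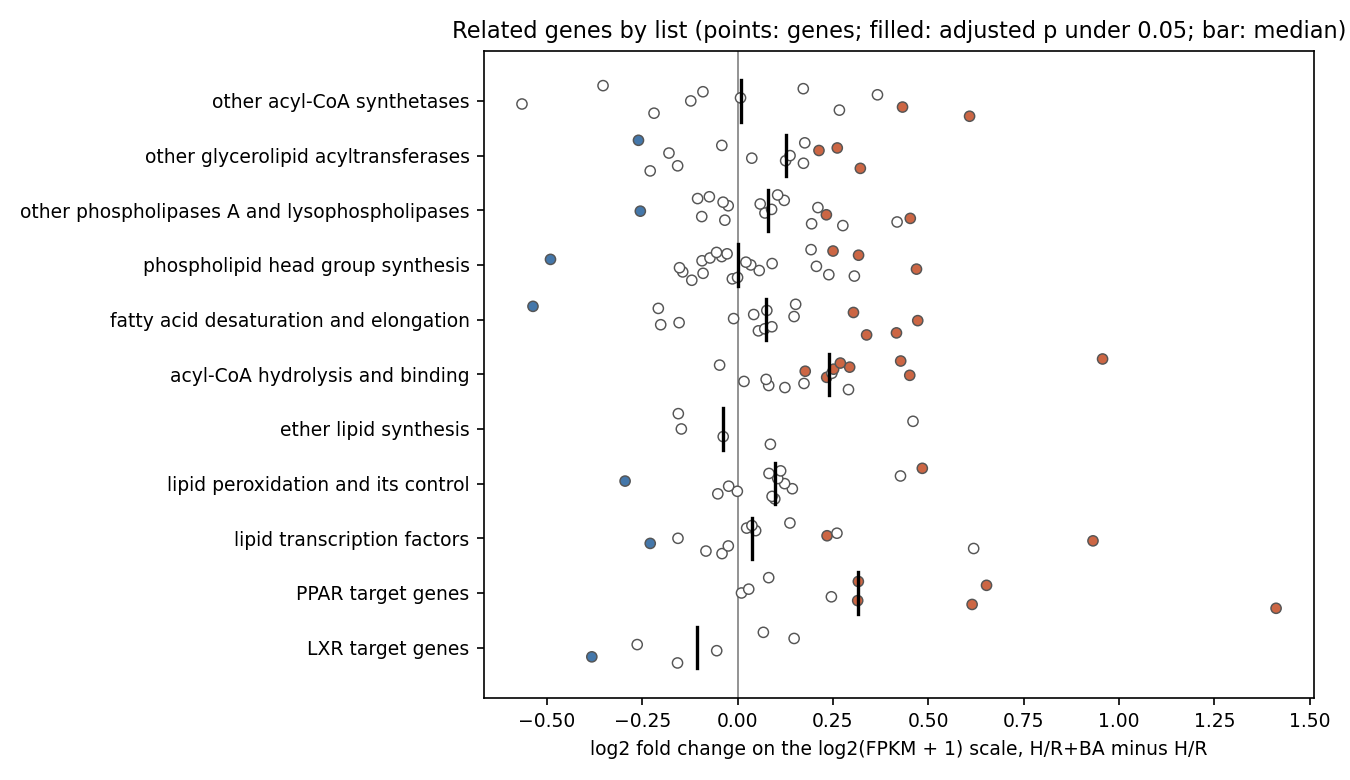
Log2 fold change, H/R+BA minus H/R, on the log2(FPKM + 1) scale (horizontal axis) of the 143 tested related genes in 11 lists (rows), with orange points for genes called higher, blue for genes called lower, open points for genes not called, and a bar at each list's median. The medians lie between −0.11 for the LXR target genes and 0.31 for the PPAR target genes.

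In the supply of acyl-CoA, 2 of 11 other acyl-CoA synthetases were called higher and none lower by limma, with 2 lower at an unadjusted p under 0.05 (median 0.01). ACSF2, a mitochondrial medium-chain synthetase, rose from 10.9 ± 1.65 to 17.004 ± 1.61 FPKM (0.61 on the log2 scale, standard error 0.11, adjusted p = 0.00375), and ACSS3, a mitochondrial synthetase of short chains, from 4.60 ± 0.677 to 6.52 ± 0.264 FPKM (0.43, adjusted p = 0.00911). Of the genes that hydrolyse acyl-CoA or bind it and fatty acids, 8 of 16 were called higher, beside 13.7% of all tested genes. None was called lower, with 0 lower at an unadjusted p under 0.05 (median 0.24). The fatty acid binding protein FABP5 was at 103 to 137 FPKM in H/R and 216 to 238 FPKM in H/R+BA, a rise from 119 ± 16.03 to 231 ± 10.3 (0.96, standard error 0.09, adjusted p = 2.71e-04). The acyl-CoA binding proteins ACBD6 (0.27, adjusted p = 0.0120) and ACBD3 (0.25, adjusted p = 0.00844) also rose.

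Some desaturases and elongases make the polyunsaturated chains that ACSL4 activates, and others, such as ELOVL6, act on other chains. Of 16 tested genes of both kinds 4 were called higher and 1 lower (median 0.07). FADS2, which starts the desaturation of essential fatty acids, rose from 53.5 ± 3.60 to 71.6 ± 2.81 FPKM (0.42, standard error 0.06, adjusted p = 0.00133). FADS1, which acts later and gives arachidonic acid, rose from 22.4 ± 1.15 to 28.6 ± 1.71 FPKM (0.34, standard error 0.06, adjusted p = 0.00420). ELOVL6, which lengthens palmitic acid, rose from 11.7 ± 1.88 to 16.4 ± 0.447 FPKM (0.47, adjusted p = 0.00794). The call lower was HACD2, a dehydratase of the elongation cycle, at 8.95 ± 1.06 and 5.88 ± 0.966 FPKM (−0.54, adjusted p = 0.00932), named after its value was seen. The elongases ELOVL5 (−0.15, adjusted p = 0.0714 by limma) and ELOVL2 (0.09, adjusted p = 0.613) did not pass the test. They too were named after their values were seen.

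Of the other acyltransferases of glycerolipids, 3 of 13 were called higher and 1 lower (median 0.13). MBOAT7, which places arachidonic acid into phosphatidylinositol, was at 44.9 to 50.2 FPKM in H/R and 58.0 to 61.1 FPKM in H/R+BA (0.32, standard error 0.05, adjusted p = 0.00188). AGPAT5, an acyltransferase of lysophosphatidic acid, rose by 0.26 (adjusted p = 0.0181), and its call was lost with the replicate block (adjusted p = 0.0531), without H/R+BA library 2 (0.0546) and without H/R+BA library 4 (0.0515). GPAT4, which starts glycerolipid synthesis on the endoplasmic reticulum, fell from 87.6 ± 10.8 to 72.6 ± 1.56 FPKM (−0.26, adjusted p = 0.0412). The call of GPAT4 was lost under 10 of 18 alternatives, among them leaving out H/R library 2 or 4 or any H/R+BA library, with an adjusted p of up to 0.118.

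Of the other phospholipases A and lysophospholipases, 2 of 18 were called higher and 1 lower (median 0.08). PNPLA8, the calcium-independent phospholipase A2 gamma of mitochondria, fell from 20.1 ± 1.26 to 16.7 ± 0.691 FPKM (−0.25, adjusted p = 0.0151, and 0.0585 with the replicate block). PLA2G16, a phospholipase of adipose tissue, rose from 31.0 ± 1.94 to 36.7 ± 2.43 FPKM (0.23, adjusted p = 0.0271), and its call was lost under 7 of 18 alternatives, among them leaving out H/R library 2 or 4 or H/R+BA library 1 or 2. PLA2G12A, a secreted enzyme, had a log2 fold change of 0.45 from FPKM (adjusted p = 0.0115) and of 0.12 from normalized counts (adjusted p = 0.278).

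In phospholipid head group synthesis 3 of 23 genes were called higher and 1 lower (median 0.00). CDS2, which makes the CDP-diacylglycerol used for phosphatidylinositol, fell from 18.2 ± 1.44 to 12.7 ± 0.674 FPKM (−0.49, standard error 0.07, adjusted p = 0.00143). PCYT2, of phosphatidylethanolamine synthesis, rose from 11.1 ± 1.16 to 15.7 ± 2.03 FPKM (0.47, adjusted p = 0.00924), and PTPMT1, of cardiolipin synthesis, rose from 39.9 ± 1.12 to 49.9 ± 2.01 FPKM (0.32, adjusted p = 0.00199). Of 5 ether lipid genes none was called by limma on FPKM (median −0.04) and 1 had an unadjusted p under 0.05, with values of −0.04 for GNPAT and −0.16 for TMEM189 (adjusted p = 0.0882, called on normalized counts).

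Of 13 tested genes of lipid peroxidation and its control 1 was called higher and 1 lower (median 0.10). At an unadjusted p under 0.05 by limma 4 were higher and 1 was lower. SAT1, the spermidine/spermine acetyltransferase that p53 induces, rose from 379 ± 38.1 to 528 ± 22.7 FPKM (0.48, standard error 0.08, adjusted p = 0.00221). VKORC1L1, which reduces vitamin K to a radical-trapping form, fell from 13.5 ± 0.361 to 10.8 ± 0.653 FPKM (−0.29, adjusted p = 0.00758). GPX4, which reduces phospholipid hydroperoxides, was at 272 ± 17.02 and 291 ± 7.86 FPKM and did not pass the test (0.10, adjusted p = 0.234). SLC7A11 (0.43, adjusted p = 0.0640 by limma) and TFRC (0.08, adjusted p = 0.589) of the same list did not pass it either. GPX4, SLC7A11 and TFRC were named after their values were seen. ALOX12, ALOX12B, ALOX15 and ALOX15B, lipoxygenases that oxidise such chains, were under 1 FPKM in every library.

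Of 13 lipid transcription factors 2 were called higher and 1 lower (median 0.04). RXRG rose from 3.02 ± 0.663 to 6.64 ± 1.03 FPKM (0.93, standard error 0.14, adjusted p = 0.00186), RXRB fell from 17.7 ± 0.814 to 14.9 ± 0.188 FPKM (−0.23, adjusted p = 0.0132, and 0.0545 with the replicate block), and NR1H3, the LXR alpha receptor, had a value of 0.23 (adjusted p = 0.0382) whose call was lost under 10 of 18 alternatives, among them leaving out any library other than H/R library 2 and H/R+BA library 4. Of 9 tested PPAR target genes 5 were called higher and none lower, with 0 lower at an unadjusted p under 0.05 (median 0.31). Of all tested genes 13.7% were called higher. The list holds none of the 10 members, and so leaves out ACSL1, which was called lower. Among the 5 was ANGPTL4, an inhibitor of lipoprotein lipase (0.61, adjusted p = 0.0163). The call of ANGPTL4 was lost without H/R+BA library 2 (adjusted p = 0.0504), with no filter (0.0593) or without moderation (0.0665). Another of the 5 was SLC25A20, the carnitine-acylcarnitine carrier (0.32, adjusted p = 0.0101). PLIN2, the lipid droplet coat, had the largest fold change of the related genes in the fit on FPKM, at 132 to 225 FPKM in H/R and 421 to 490 FPKM in H/R+BA. Of 6 LXR target genes, a group to which LPCAT3 is known to belong, 1 was called lower and none higher, with 0 higher at an unadjusted p under 0.05 (median −0.11), namely the cholesterol exporter ABCG1 (3.59 ± 0.448 to 2.51 ± 0.139 FPKM, −0.38, adjusted p = 0.0150).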

How the data were processed

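Total RNA of iPSC-CMs was made into libraries with a stranded mRNA kit and read in pairs. Per the labels and methods, the authors used Trimmomatic 0.39 for trimming, HISAT2 2.1.0 for mapping (build GRCh38.p5), and name featureCounts 2.0.6 and Cuffdiff 2.2.1. Neither the annotation nor the strand setting of the counting is given in the sources used here. The deposited gene table holds normalized FPKM and normalized counts (a signal scaled by the authors, not whole, of which 72.1% to 76.1% of the values above 0 in a library were whole multiples, within 0.02, of the commonest low value). The deposited sequencing summary holds the read count of each library and the percent of reads mapped, worked out by the authors, with 9 rows of other samples that were not used. The authors' fold changes and p-values, and 4 columns of group means, were not used.

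Differences on log2(FPKM + 1) were tested two-sided by limma 3.58.1 (R 4.3.3, moderated variances with trend). P-values were adjusted by Benjamini-Hochberg over 14334 genes, those reaching 1 FPKM in 4 libraries or more, with a threshold of 0.05. No count interval is given, since FPKM does not hold the counting error apart from replicate spread. The fit was tested on simulated data. The 18 alternatives were a pseudocount of 0.1, no filter, a filter at 10 normalized counts, 2 rescalings, the normalized counts, no moderation, a replicate block and leaving out each of 8 libraries, and, added after the data were seen, the mapped share and the hepatic marker level as terms. Members and lists were chosen with earlier results of these data known. The text names all members and, for each list, up to 3 called genes with the smallest p or, with none called, the 2 with the highest mean FPKM. For ACSL4 and LPCAT3 it also names the 3 genes with the highest r. Coordinates and overlaps came from GENCODE 44 and promoters from RefSeq. A search with BLAST 2.17.0 found no tested member that shares 100 bases or more at 95% identity with another gene, other than with genes that overlap it in the genome.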

Additional observations from a re-analysis of the deposited data

Results flagged for a closer look

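Among 76 groups of 4 libraries checked, over the members and the named related genes, 4 held a library far from the other 3, and chance alone sets about 1 in 20 such groups apart. None of the 4 was in a gene of the 10. PNPLA8 was at 18.2 FPKM in H/R library 2 and at 20.6 to 20.9 FPKM in the other H/R libraries. RXRG was at 5.12 FPKM in H/R+BA library 4 and at 6.93 to 7.30 FPKM in the others of its group. SLC25A20 was at 23.7 FPKM in H/R+BA library 1 and at 20.4 to 20.9 FPKM in the others. ABCG1 was at 2.92 FPKM in H/R library 4 and at 3.81 to 3.83 FPKM in the others.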

How the results depend on the processing

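ACSL1 and LPCAT4 were called in the same direction under all 18 alternatives. The count of members called higher was 2 and became 1 with no filter and without moderation, where ACSL5 was lost, and 3 with the hepatic marker level as a term, where LPCAT1 was gained. The count of members called lower was 2 and became 1 with no filter, without moderation and with the mapped share as a term, where ACSL4 was lost, and 4 on normalized counts. Related genes called were 37, then 56 on normalized counts, where 4945 of all 14334 tested genes were called, and 57 with the hepatic marker level as a term, where 5174 were called, beside 3546 in the test reported. Leaving out 1 library at a time gave 1 to 2 members higher, 1 to 2 members lower, 28 to 38 related genes and 2491 to 3512 of 14334 genes. LPCAT3, which was not called, changed sign without H/R+BA library 1, and its values ranged from −0.052 to 0.054 when each library was left out. Over all genes, 1958 were higher and 1588 lower from FPKM, 2350 and 2595 from normalized counts. The cause of these differences was not tested. The labels do not say whether libraries with the same replicate number were paired. Residuals of libraries with the same number correlated at 0.24, −0.24, −0.25 and −0.01. These values cannot decide it, since residuals of libraries with different numbers correlated at −0.40 to 0.31. With the replicate number as a block, 2531 genes, 26 related genes, 2 members higher and 1 member lower were called. The 4 libraries in each group limit the precision, and ACSL6 was too low to test.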
